A study of Homo sapiens with 4 samples.

Results

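The proteins of the mitochondrial ribosome's large subunit were followed through their mRNAs, which are made in the nucleus and translated in the cytosol. The members were all genes of the count table whose symbol is MRPL followed by a number, 49 of 62700 genes, and the 36 MRPL pseudogenes were left out. The cells were HEK293T, an immortalised human line of embryonic kidney origin, as 1 stable clone with the genotype CMV-V5-MITO-PRADA. That is a V5-tagged labelling construct under a CMV promoter, placed in the mitochondrial matrix. Every culture had 100 µM s4U (4-thiouridine, a uridine analogue incorporated into new RNA) in the medium for 5 h, followed by 30 min with 0.5 mM alkyne phenol and s4U together. The labelled group (2 libraries) then had 10 mM D-amino acid for 30 min, which starts labelling, and the unlabelled group (2 libraries) had no D-amino acid. The series design describes the RNA as labelled and enriched. The sample titles call the libraries of each group biological replicates. How the cultures behind them were kept apart is not given. The p-values here refer to the spread between libraries, part of which may be technical.

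The mitochondrial ribosome makes the proteins encoded on the mitochondrial chromosome, all of them subunits of oxidative phosphorylation. Its large subunit holds the peptidyl transferase centre in the 16S rRNA MT-RNR2, the one large rRNA of that subunit and itself a product of the mitochondrial chromosome. All its proteins are imported from the cytosol. Many descend from bacterial ribosomal proteins, and others were added during the evolution of mitochondria. MT-RNR2 and the finished MRPL proteins are in the matrix, the compartment of the construct, and the MRPL mRNAs are outside it. The comparison of labelled with unlabelled libraries asks which RNAs are more abundant in the material where labelling was started.

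Because s4U enters RNA at uridines, the start of the coding sequence is shown for 4 members, in GENCODE 29 transcripts on GRCh38, with each T, a uridine in the mRNA, in capitals. MRPL9 and MRPL52 had the largest and the smallest log2 fold change. MRPL19 and MRPL41 had the highest and the lowest share of uridine over the whole transcript. Each line gives the first 90 coding bases.

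MRPL9: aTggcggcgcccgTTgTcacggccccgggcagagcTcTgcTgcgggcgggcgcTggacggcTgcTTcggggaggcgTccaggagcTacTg
MRPL52: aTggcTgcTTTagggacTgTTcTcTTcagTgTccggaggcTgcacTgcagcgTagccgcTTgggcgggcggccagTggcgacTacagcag
MRPL19: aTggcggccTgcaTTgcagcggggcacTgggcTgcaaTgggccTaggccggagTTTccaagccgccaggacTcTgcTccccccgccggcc
MRPL41: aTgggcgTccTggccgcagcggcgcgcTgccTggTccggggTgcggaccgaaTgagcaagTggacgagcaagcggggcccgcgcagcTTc

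The MRPL9 bases lie at chr1:151763390-151763479 on the minus strand and hold 14 T. Those of MRPL52 span chr14:22829913-22830190 on the plus strand, intron included, and hold 20 T. MRPL19 (chr2:75646808-75646897, plus strand) holds 14 T, and MRPL41 (chr9:137552082-137552171, plus strand) holds 11 T. Over the whole transcript, uridine made up 21.6% in MRPL9, 21.8% in MRPL52, 32.97% in MRPL19 and 12.7% in MRPL41. The genes at the 2 ends of the fold changes thus had nearly the same uridine share.

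The labelled libraries held 9380258 and 12287451 assigned fragments and the unlabelled libraries 8172347 and 5771795. Transcripts of the mitochondrial chromosome took 26.99% and 30.9% of labelled and 9.04% and 10.4% of unlabelled fragments. Of the 6 genes listed for HEK293T (NEFL, NEFM, VIM, KRT8, KRT18 and PAX2), all 6 had fragments in every library. Their summed levels were 234 to 238 counts per 1000000 (CPM) in labelled and 220 to 273 CPM in unlabelled libraries. Most of this was VIM, at 179 to 216 CPM over the libraries. KRT18 had 20.4 to 27.8 CPM, NEFL, KRT8 and PAX2 had 4.38 to 13.6 CPM, and NEFM had 0.445 to 2.50 CPM. Of 5 blood cell markers, HBB and CD3E had no fragment, and PTPRC, LYZ and HBA1 reached at most 1.36 CPM. Of 6 markers of fibroblasts and endothelium, DCN had no fragment, COL3A1, PECAM1, CDH5 and VWF reached at most 1.34 CPM, and COL1A1 reached 20.5 CPM. Their sums were 20.97 and 20.99 CPM in labelled and 12.8 to 20.8 CPM in unlabelled libraries. Their part in the results was not tested.

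Of the large subunit mRNAs 48 of 49 were found in all libraries, and none differed between labelled and unlabelled libraries beyond the test's threshold. Fragments were counted for 48 of 49 members in every library, with a median over the 49 of 330 and 421 fragments in labelled and 368 and 246 in unlabelled libraries. Of the 48 members tested with edgeR's quasi-likelihood test, 0 were higher and 0 lower at an adjusted p under 0.05, where 0.269% of all 18973 genes tested were higher and 0.0158% lower. DESeq2 also called 0 of the 48, where it called 0.34% of its genes higher and 0.0638% lower. At an unadjusted p under 0.05 edgeR gave 2 higher members (4.17%) against 5.67% of all genes, and 6 lower members (12.5%) against 5.88%. DESeq2 gave 2 members at that level, and its share over all genes at that level was not counted. The smallest adjusted p among the members was 0.0862. In these bulk libraries fewer cells with an mRNA and less of it per cell cannot be told apart. The RNA is described as enriched, so a difference in recovery cannot be told apart from these either.

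The median log2 fold change, labelled over unlabelled, was 0.06 over the 48 members and -0.01 over all genes tested, and with scaling by library size alone -0.29 and -0.37. With TMM it was above 0 for 30 members (62.5%), against 48% of all genes, and with library size alone for 2 of 48 members. The lowest and highest members stood at 0.650-fold and 1.70-fold. The log2 fold change lay between the quartiles of all genes for 28 members, above the upper quartile of 0.17 for 13 and below the lower quartile of -0.23 for 7. The labelled libraries were both above both unlabelled libraries for 13 members (27.1%), against 22.2% of all genes, and both below for 11 members (22.9%), against 22.4%.

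**Figure D1:**
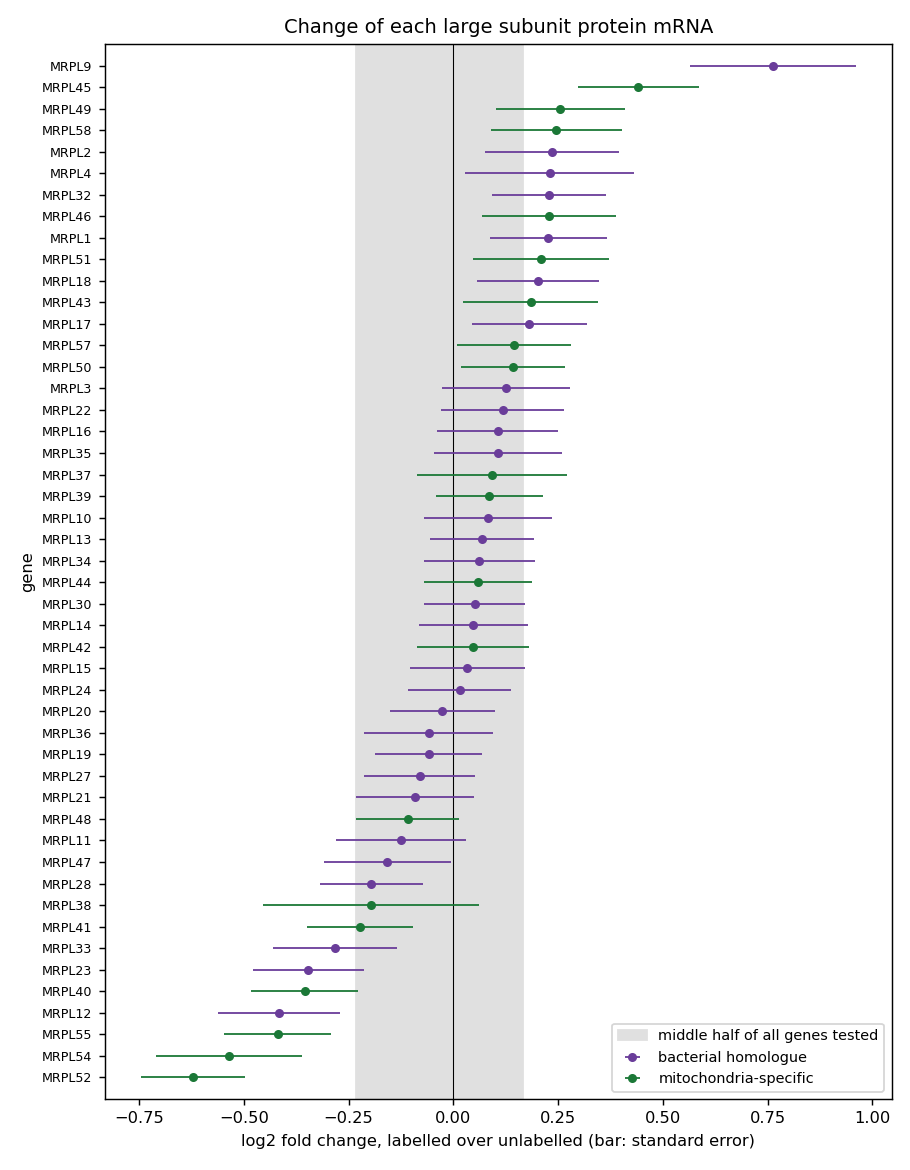
Log2 fold change of the 48 tested MRPL genes, labelled over unlabelled, with standard errors as bars and colours for bacterial homologues and mitochondria-specific proteins. The grey band spans the quartiles of all 18973 genes tested, and 28 of the 48 points lie inside it, with MRPL9 at 0.76 and MRPL52 at -0.62 at the ends.

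Of the 8 members with the smallest log2 fold change, 5 encode proteins specific to mitochondrial ribosomes and 3 have bacterial relatives. Of all 48 tested members, 19 are mitochondria-specific. Among the 8 with the largest log2 fold change, MRPL45, MRPL46, MRPL49 and MRPL58 are mitochondria-specific as well. MRPL52, one of the mitochondria-specific proteins (chromosome 14, 22829879 to 22835037), stood at 30.3 and 28.8 CPM in labelled against 45.9 and 45.0 CPM in unlabelled libraries. Both labelled libraries were below both unlabelled ones, and the libraries of each group lay close together. Its log2 fold change was -0.62 ± 0.12 (SE), with an edgeR adjusted p of 0.0862. It shared no exon base with another gene.

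MRPL54 and MRPL55 are mitochondria-specific as well. MRPL54 had 14.7 and 12.1 CPM in labelled against 20.5 and 18.1 CPM in unlabelled libraries, a log2 fold change of -0.54. MRPL55 had 28.7 and 29.2 CPM in labelled against 40.5 and 36.8 CPM in unlabelled libraries, a log2 fold change of -0.42. Groups did not overlap for either gene, and the edgeR adjusted p was 0.306 and 0.301. MRPL40, a protein of the central protuberance, the crown of the large subunit, had 26.7 and 27.9 CPM in labelled against 34.1 and 35.9 CPM in unlabelled libraries (log2 fold change -0.36). MRPL41, another mitochondria-specific protein, had 52.2 and 46.7 CPM in labelled against 56.5 and 59.0 CPM in unlabelled libraries (-0.22). The groups were apart for both of these genes too, with edgeR adjusted p-values of 0.344 and 0.519.

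MRPL12, the mitochondrial relative of the bacterial stalk protein L7/L12, had 19.7 and 21.5 CPM in labelled against 25.5 and 29.9 CPM in unlabelled libraries (log2 fold change -0.42 ± 0.15 SE, edgeR adjusted p 0.331). Of its exon bases, 69.5% are shared with the gene ENSG00000262660 on the same strand, so fragments there stay unassigned. MRPL23, at the exit of the polypeptide tunnel, had 41.2 and 35.98 CPM in labelled against 51.6 and 46.2 CPM in unlabelled libraries (-0.35). MRPL33, relative of bacterial L33, had 17.96 and 19.6 CPM in labelled against 22.05 and 23.8 CPM in unlabelled libraries (-0.28). The groups did not overlap in these 3 genes, and the edgeR adjusted p was 0.368 for MRPL23 and 0.485 for MRPL33.

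**Figure D2:**
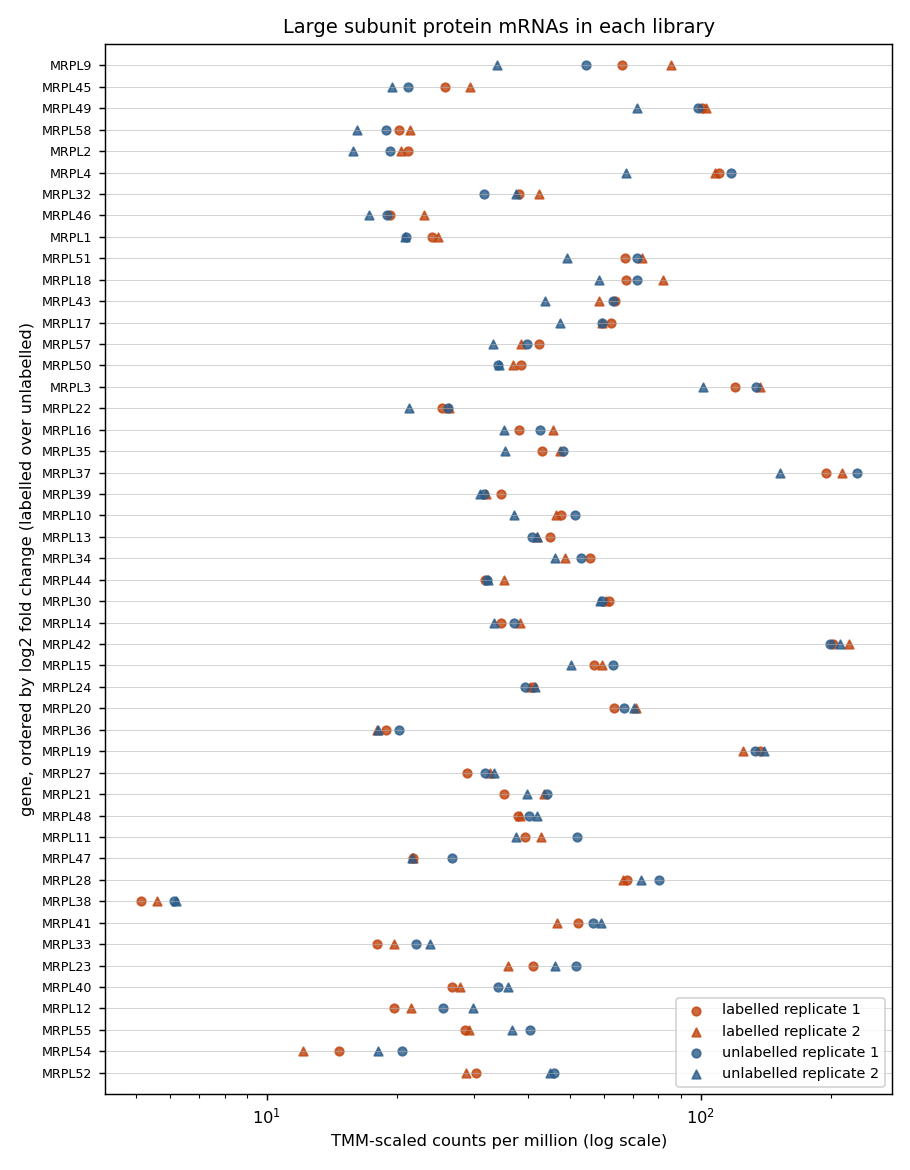
TMM-scaled CPM of the 48 tested MRPL genes in each of the 4 libraries on a log axis, ordered by log2 fold change. At the bottom the labelled points of MRPL52 (30.3 and 28.8) lie left of the unlabelled points (45.9 and 45.0), and at the top those of MRPL9 (65.8 and 85.5) lie right of them (54.6 and 33.9), while for 24 genes the groups overlap.

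At the high end, MRPL9 (chromosome 1, 151759647 to 151763496), relative of the bacterial protein L9, had the largest log2 fold change. It had 65.8 and 85.5 CPM in labelled against 54.6 and 33.9 CPM in unlabelled libraries. The groups did not overlap, but the libraries within each group were far apart, and unlabelled replicate 2 was the lowest. Its log2 fold change was 0.76 ± 0.20 (SE), with an edgeR adjusted p of 0.211. It shares 35.98% of its exon bases with ENSG00000269621 and OAZ3 on the opposite strand and ENSG00000249602 on the same strand, and fragments over those bases stay unassigned.

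MRPL45, which sits at the tunnel exit and anchors the ribosome to the inner membrane, had 25.8 and 29.4 CPM in labelled against 21.2 and 19.5 CPM in unlabelled libraries. The groups did not overlap, and the log2 fold change was 0.44 ± 0.14 (SE, edgeR adjusted p 0.310). Its pseudogene MRPL45P2 had 9.21 and 10.97 CPM in labelled against 11.8 and 14.3 CPM in unlabelled libraries, so the copies differed in sign, and reads shared between them are uncertain. Added together, gene and pseudogene stood at 34.98 and 40.4 CPM in labelled against 32.96 and 33.8 CPM in unlabelled libraries. The other 35 MRPL pseudogenes together held 47 and 61 fragments in labelled and 56 and 54 in unlabelled libraries.

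The next 6 members of the high end had log2 fold changes of 0.23 to 0.26, with edgeR adjusted p-values of 0.544 to 0.682. MRPL49, specific to mitochondria, had 100.5 and 103 CPM in labelled against 98.6 and 71.4 CPM in unlabelled libraries. MRPL4, which lines the exit tunnel, had 110.5 and 108 CPM in labelled against 118 and 67.4 CPM in unlabelled libraries. In MRPL4 the groups overlapped, with unlabelled replicate 1 highest and unlabelled replicate 2 lowest, and in MRPL49 they did not.

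MRPL58, a peptidyl-tRNA hydrolase that became a ribosomal protein, had 20.2 and 21.5 CPM in labelled against 18.8 and 16.1 CPM in unlabelled libraries. MRPL2, next to the peptidyl transferase centre, had 21.2 and 20.4 CPM in labelled against 19.3 and 15.8 CPM in unlabelled libraries. In MRPL32, a zinc-binding protein that is cut by an inner membrane protease on its way into the ribosome, the values were 38.1 and 42.5 CPM in labelled against 31.6 and 37.6 CPM in unlabelled libraries. Both labelled libraries were above both unlabelled ones in these 3 genes. MRPL46 of the central protuberance had 19.2 and 23.1 CPM in labelled against 18.9 and 17.2 CPM in unlabelled libraries. The groups were apart there too, by little in MRPL46 as in MRPL32.

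Levels per length spread widely among the members. The groups overlapped for 4 of the 5 highest mRNAs, against 24 of the 48 tested members and 10507 of all 18973 genes tested. The mean TMM-scaled CPM per kilobase of counted exon ran from 1.72 to 92.1 over the 48 tested members, with a median of 16.9. MRPL41 was highest at 92.1 per kilobase, on a counted length of 582 bases that is shorter than its GENCODE 29 transcript of 1262 bases. MRPL37 followed at 77.3, MRPL18 at 50.8, MRPL51 at 46.998 and MRPL3 at 45.3 CPM per kilobase. MRPL37, a mitochondria-specific protein, had 195 and 212 CPM in labelled against 229 and 152 CPM in unlabelled libraries, so both labelled values lay between the unlabelled ones. MRPL18 of the central protuberance had 67.4 and 82.0 CPM in labelled against 71.3 and 58.4 CPM in unlabelled libraries. MRPL51, another mitochondria-specific protein, had 66.8 and 73.4 CPM in labelled against 71.4 and 49.3 CPM in unlabelled libraries. In MRPL51 and MRPL18 unlabelled replicate 1 lay between the labelled libraries. MRPL3, close to the peptidyl transferase centre, had 120 and 137 CPM in labelled against 134 and 101 CPM in unlabelled libraries. In these 4 genes the groups overlapped, and the lowest value was that of unlabelled replicate 2.

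The lowest per kilobase were MRPL53 with no fragment, MRPL38 at 1.72 and MRPL46 at 3.06 CPM per kilobase. MRPL53 (chromosome 2, 74471982 to 74472687) had 0 fragments in every library, which allows up to 0.320 and 0.244 CPM of assigned fragments in labelled and 0.367 and 0.520 CPM in unlabelled libraries. Of its exon bases, 99.4% lie in exons of CCDC142 on the same strand or of ENSG00000286883 on the opposite strand, so its fragments would be left unassigned, and the 0 does not measure its mRNA. CCDC142 itself had 330 and 410 fragments in labelled against 355 and 298 in unlabelled libraries. MRPL38 shares 45.1% of its exon bases and had 5.13 and 5.58 CPM in labelled against 6.12 and 6.19 CPM in unlabelled libraries, which were apart by little (log2 fold change -0.20, edgeR adjusted p 0.797). Exon bases were shared with another gene in 24 of 49 members. The median log2 fold change was 0.06 over the 23 of these that were tested and 0.08 over the 25 members with none.

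Ordered by structure, no region of the subunit held a gene past the threshold. The 29 bacterial homologues had a median log2 fold change of 0.05, with 18 above 0, and the 19 tested mitochondria-specific members had 0.09, with 12 above 0. The homologues ran from -0.42 to 0.76 and the mitochondria-specific members from -0.62 to 0.44. Both labelled libraries were above both unlabelled ones for 6 of the 19 (31.6%) and 7 of the 29 (24.1%), against 22.2% of all genes. They were below for 7 of the 19 (36.8%) and 4 of the 29 (13.8%), against 22.4% of all genes. The 4 proteins of the L1 and L7/L12 stalks (MRPL1, MRPL10, MRPL11 and MRPL12) had a median of -0.02, the 6 proteins of the polypeptide exit 0.07 and the 7 of the central protuberance -0.08.

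Among the stalk genes, MRPL10, the base that carries the L7/L12 copies, had 47.8 and 46.6 CPM in labelled against 51.4 and 37.1 CPM in unlabelled libraries. MRPL11, which together with the stalk forms the site where translation factors bind, had 39.4 and 42.9 CPM in labelled against 51.8 and 37.6 CPM in unlabelled libraries. Both overlapped between the groups, unlike their neighbour MRPL12 above.

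A further 3 genes encode proteins of the large subunit under other symbols. GADD45GIP1 had 61.9 and 47.3 CPM in labelled against 68.0 and 63.1 CPM in unlabelled libraries. MRPS30 had 96.8 and 99.4 CPM in labelled against 90.4 and 83.1 CPM in unlabelled libraries. MRPS18A had 34.3 and 39.5 CPM in labelled against 35.2 and 26.0 CPM in unlabelled libraries. Their log2 fold changes were -0.27, 0.18 and 0.26, with edgeR adjusted p-values of 0.504, 0.609 and 0.545.

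Of 22 assembly factors of the large subunit, 21 were tested and 0 passed edgeR in either direction, with a median log2 fold change of 0.06. At an unadjusted p under 0.05, 2 were higher (9.52%, against 5.67% of all genes) and 1 lower (4.76%, against 5.88%). MTG1, a GTPase that acts late in assembly, had 20.99 and 22.9 CPM in labelled against 27.4 and 30.8 CPM in unlabelled libraries (edgeR log2 fold change -0.40, adjusted p 0.330). MALSU1, which keeps the immature subunit from joining the small one, had 34.2 and 38.96 CPM in labelled against 30.6 and 26.1 CPM in unlabelled libraries (0.36, adjusted p 0.370). The RNA helicase gene DDX28 had 26.0 and 28.3 CPM in labelled against 22.9 and 18.4 CPM in unlabelled libraries (0.38, adjusted p 0.381). The small subunit's 31 genes had a median of 0.09, with 20 above 0 and 0 past the threshold. At an unadjusted p under 0.05, 5 of them were higher (16.1%, against 5.67% of all genes) and 3 lower (9.68%, against 5.88%).

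**Figure D3:**
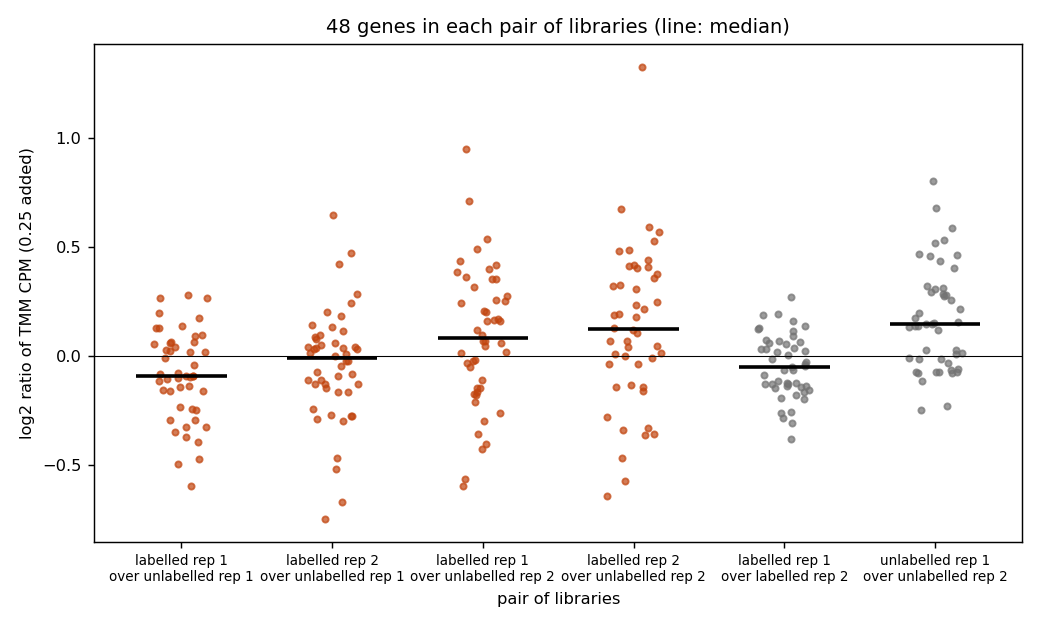
Log2 ratio of TMM-scaled CPM, with 0.25 CPM added, for the 48 tested MRPL genes in each pair of libraries. Labelled over unlabelled pairs are in orange and pairs within a group in grey, with a line at the median. The median of unlabelled replicate 1 over unlabelled replicate 2 (0.15) lies above that of all 4 pairs between the groups (-0.09, -0.01, 0.08 and 0.12).

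By the median, the 2 unlabelled libraries differed more from each other than either labelled library did from unlabelled replicate 1. They differed less than either labelled library did from unlabelled replicate 2. For 33 of 48 members unlabelled replicate 2 was below unlabelled replicate 1, and for 26 it was the lowest of the 4 libraries. The median absolute log2 difference between the unlabelled libraries was 0.16, and between the labelled libraries 0.12. Between the groups it was 0.13 for labelled replicate 1 and 0.13 for labelled replicate 2 against unlabelled replicate 1, and 0.21 and 0.29 against unlabelled replicate 2. The gap between the unlabelled libraries exceeded the size of the log2 fold change in 26 members, and that between the labelled libraries in 19.

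The calls among the members changed when single libraries were left out. Without unlabelled replicate 1, edgeR gave 12 higher members (25%, against 11.6% of all genes) and 3 lower (6.25%, against 7.37%), and the median was 0.15. Without unlabelled replicate 2, there were 1 higher (2.08%, against 2.06%) and 4 lower (8.33%, against 2.55%), and the median was -0.02, with 19 of 48 above 0. Without labelled replicate 1, 1 was higher (2.08%, against 0.367%) and 0 lower (against 0.082%). Without labelled replicate 2, 0 were higher (against 0.236%) and 0 lower (against 0.0434%), and the smallest adjusted p was 1.00. In these fits the lone library of a group is assumed to vary like the other group. MRPL9 passed without labelled replicate 1, unlabelled replicate 1 or unlabelled replicate 2, at 0.96, 1.19 and 0.48. MRPL52 passed without unlabelled replicate 1 or unlabelled replicate 2, at -0.58 and -0.63. MRPL4 and MRPL37 were at 0.73 and 0.45 without unlabelled replicate 1 and at -0.10 and -0.16 without unlabelled replicate 2. Over the 4 fits that leave out 1 library, the adjusted p of MRPL9 ran from 1.64e-19 to 1.00 and that of MRPL52 from 1.50e-05 to 1.00.

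Summed over the 49 genes, the large subunit mRNAs took 0.227% of assigned fragments in labelled replicate 1 (95% Wilson interval 0.224 to 0.230%) and 0.219% in labelled replicate 2 (0.216 to 0.221%). They took 0.288% in unlabelled replicate 1 (0.285 to 0.292%) and 0.261% in unlabelled replicate 2 (0.257 to 0.265%). These intervals cover counting error only. The mean was 0.223% ± 0.00599 in labelled and 0.275% ± 0.0196 in unlabelled libraries (SD, n = 2 each). Of fragments of nuclear genes alone, the sum took 0.311% and 0.317% in labelled against 0.317% and 0.291% in unlabelled libraries, and the groups overlapped. The small subunit genes took 0.216% and 0.219% of nuclear fragments in labelled against 0.211% and 0.210% in unlabelled libraries.

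The rRNA of the same subunit varied more between libraries. MT-RNR2 (mitochondrial chromosome, 1671 to 3229) had 2668 and 12949 CPM in labelled against 3933 and 1217 CPM in unlabelled libraries, and the groups overlapped. Its log2 fold change was 1.6 ± 0.63 (SE), with an edgeR adjusted p of 0.381. Leaving out labelled replicate 2 took it to 0.06 (adjusted p 1.00), leaving out unlabelled replicate 1 to 2.71, leaving out labelled replicate 1 to 2.35 and leaving out unlabelled replicate 2 to 1.00, and the last 3 passed. Per fragment of MRPL mRNA there were 1.07 and 5.01 MT-RNR2 fragments in labelled against 1.50 and 0.536 in unlabelled libraries. The libraries were depleted of ribosomal RNA, per the labels, and how the depletion varied between libraries was not tested.

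**Figure D4:**
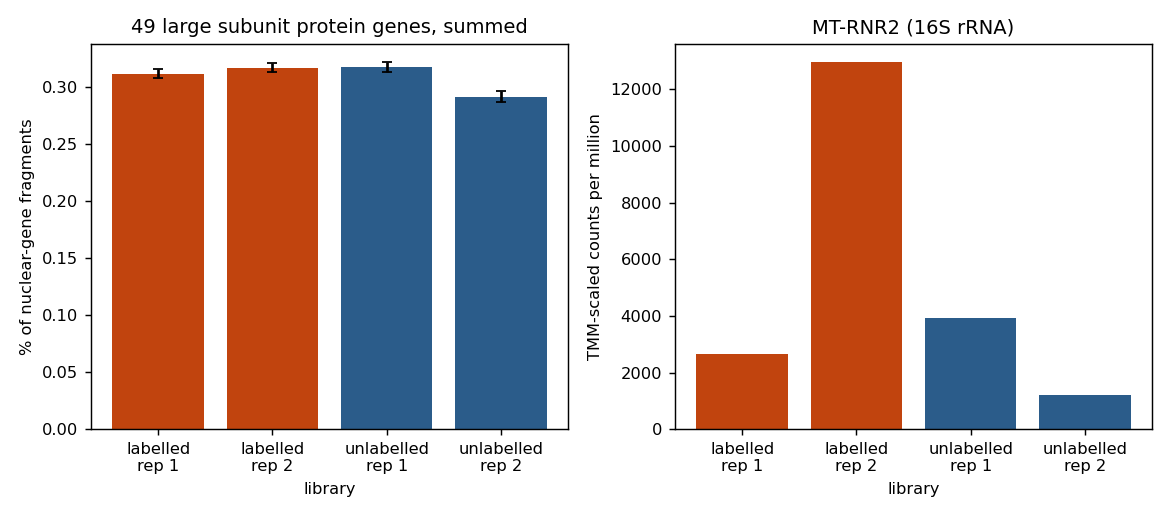
Left, the 49 MRPL genes summed as a percent of fragments of nuclear genes, with 95% Wilson intervals, and right, MT-RNR2 in TMM-scaled CPM, for each library. The MRPL sum stays between 0.291% and 0.317%, while MT-RNR2 runs from 1217 to 12949 CPM with labelled replicate 2 highest.

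Across the 48 genes the log2 fold change had a Spearman correlation of 0.14 with the counted length (Pearson 0.14 on log2 length) and 0.07 with the level per kilobase (Pearson 0.09). Genes are not independent replicates and share the 4 libraries. Over all 13503 tested genes with a GENCODE 29 coding transcript these Spearman correlations were -0.10 and 0.19. The members' correlation with level differed by library pair. It was -0.11 and -0.06 for labelled replicates 1 and 2 over unlabelled replicate 1, and 0.21 and 0.23 over unlabelled replicate 2. For unlabelled replicate 2 over unlabelled replicate 1 it was -0.33.

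The uridine share of the transcript had a Spearman correlation of 0.31 with the log2 fold change over the 48 members (Pearson 0.37), and the GC share -0.27 (Pearson -0.34). Over all 13503 genes these were 0.09 and -0.09, and the difference was not tested. In the 25 members with no shared exon base it was 0.63 for uridine and -0.63 for GC. The 23 tested members that share exon bases were not correlated on their own, so 0.63 stands for the 25 alone. The 16 members with the lowest uridine share, 12.7 to 22.1%, had a median log2 fold change of -0.20, with 6 of 16 above 0. The next 16 had 0.07, with 11 of 16 above 0, and the 16 highest, 25.8 to 32.97%, had 0.10, with 13 of 16 above 0. Between the unlabelled libraries (replicate 2 over 1) the correlation with uridine was -0.04, and between the labelled libraries (replicate 2 over 1) 0.11. In each of the 4 pairs between the groups it was 0.28 to 0.38, but these pairs reuse the same libraries and are not separate checks. Uridine and GC share were not separated here. Coding length, with a Spearman correlation of 0.31, was not separated from them either. Its correlation was 0.16 to 0.35 in the 4 pairs between the groups. Between the labelled libraries (replicate 2 over 1) it was 0.28, and between the unlabelled libraries (replicate 2 over 1) -0.16.

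**Figure D5:**
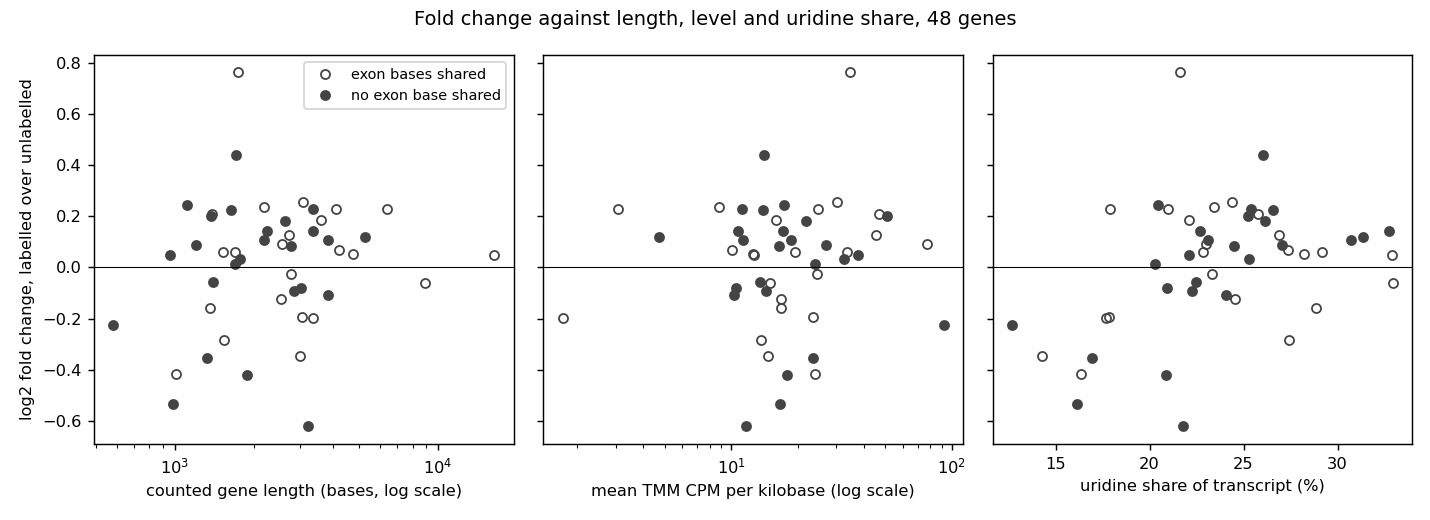
Log2 fold change, labelled over unlabelled, of the 48 tested MRPL genes against counted length, mean TMM-scaled CPM per kilobase and uridine share of the GENCODE 29 transcript. Filled points share no exon base with another gene. The points show little order by length or level (Spearman 0.14 and 0.07) and lean upwards with uridine share (0.31), with MRPL9 at 0.76 above the rest. The sign of the correlation with level differed by which unlabelled library was used.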

How the data were processed

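Fragment counts per gene for 4 RNA-seq libraries were used as deposited, not normalized. Per the file headers the authors counted with featureCounts 1.6.4 on GENCODE 44 (read pairs with both ends mapped, exons summed by gene, no strand or multi-mapping option). The submitters' processing notes name STAR 2.7.9a, DESeq2 1.42.0 and the build GRCh38. Multi-mapping and ambiguous fragments are therefore missing, which lowers genes that overlap others. Symbols were paired for all 62700 genes.

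Counts were tested with edgeR 4.0.16 (filterByExpr, TMM, quasi-likelihood, Benjamini-Hochberg over 18973 genes, threshold 0.05) in R 4.3.3, without a block, and tried on simulated data. CPM is scaled by TMM unless it is given of assigned fragments. SE is the log2 fold change over the square root of F. The alternatives were other scalings and filters, DESeq2 1.42.0, thinning, a replicate block and leaving out each library. Uridine and GC share come from 1 GENCODE 29 principal transcript per gene and were added after the files were read.

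Every member could be named, and values per library were given for the 8 largest and 8 smallest log2 fold changes, the 5 highest and 3 lowest levels per kilobase, the stalk genes, MT-RNR2, 3 large subunit genes under other symbols, and the 3 assembly factors with the smallest p. Members and lists were chosen with earlier results of these data known. The value of 1 gene of the marker lists is not reported here. Plots used matplotlib 3.10.9, and intervals SciPy 1.17.1.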

Additional observations from a re-analysis of the deposited data

How the results depend on the processing

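Scaled by library size alone, all genes tested had a median of -0.37 (log2) and the members one of -0.29. Lower there were 11 members (22.9%), 3 of 21 assembly factors and 2675 of all genes tested (14.1%). The log2 fold change was above 0 for 2 of 48 members there, against 30 with TMM. Relative to all genes the members' median was 0.08 there and 0.07 with TMM. Of the members given with values in every library, MRPL10, MRPL18, MRPL2, MRPL3, MRPL32, MRPL37, MRPL4, MRPL46, MRPL49, MRPL51 and MRPL58 turned negative with that scaling, at -0.27, -0.16, -0.12, -0.23, -0.13, -0.26, -0.12, -0.13, -0.10, -0.14 and -0.11. Size factors of RLE gave 5 lower genes and DESeq2 12, against 3. Without a filter 183 genes were higher and 119 lower (0.461% and 0.300%), and MT-RNR2 passed at 1.63. Among the members 1 was higher there (MRPL9) and 1 lower (MRPL52), 2.08% each. The groups share replicate numbers, which are not shown to pair the libraries (correlation of deviations -0.070, 2 pairs). With the replicate block 140 genes were higher and 96 lower in all (0.738% and 0.506%), with 1 member higher (MRPL9, edgeR adjusted p 2.01e-04) and 1 lower (MRPL52, edgeR adjusted p 0.0112), 2.08% each.

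Leaving out each library gave 49 to 2440 higher and 9 to 1545 lower genes in all, 0 to 12 higher and 0 to 4 lower members, 0 to 6 higher and 0 to 2 lower assembly factors, and 0.059 to 2.71 for MT-RNR2. Over these fits MRPL11 ran from -0.32 to 0.17, MRPL10 from -0.12 to 0.38 and MRPL3 from -0.054 to 0.38. MRPL37 ran from -0.16 to 0.45, MRPL4 from -0.10 to 0.73 and MRPL51 from -0.018 to 0.54. All of these genes were negative without unlabelled replicate 2. MRPL11 was positive only without unlabelled replicate 1, and the others were positive in every other fit that left out a library. The direction held in all 12 alternatives for 13 of 48 members. These alternatives include scaling by library size alone, where only 2 of 48 members, MRPL9 and MRPL45, were above 0. The ratio of the members' summed share, labelled over unlabelled, was 0.812 of assigned and 1.03 of nuclear fragments. Leaving out members that share exon bases took the Spearman correlation with length to 0.084 (0.14 over all 48), that with uridine share to 0.63 and that with GC share to -0.63, an alternative added after seeing the data for base composition. The cause of these shifts was not tested. With 2 libraries a group and a median standard error of 0.14, log2 differences of the size seen in most members could not be told from the spread.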
